A study of Saccharomyces cerevisiae with 10 samples.

Results

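Some stretches of open chromatin in the Orc4-IHΔ mutant held several peaks of the origin recognition complex (ORC) at which no WT ORC peak was called. Of 2140 mutant ORC peaks, 248 overlapped no WT ORC peak and lay in an open region that at least 2 mutant ORC peaks overlapped. They lay in 130 of 2716 open regions and on all 16 nuclear chromosomes. The members were chosen by peak positions in the ORC and ATAC-seq lists. The number of peaks per region, the absence of WT peaks at the members and the overlap with open chromatin are descriptions, not findings. Peak height was not used to choose the members, but it comes from the same lists. Peak width, spacing and position within a region are limited by the rule, since several separate peaks must fit in 1 region. Height moved with width in the mutant list, so it is not free of the rule either.

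ORC is the multi-subunit complex that marks replication origins and serves as the platform on which the MCM helicase is loaded in G1. In budding yeast it recognises a short T-rich consensus at autonomously replicating sequences, and part of that base recognition is made by a helix inserted in the Orc4 subunit, which lies in the major groove of the DNA. Human Orc4 lacks this insertion helix (IH), and human ORC is known to associate with open chromatin and promoters without a strict sequence consensus. Open regions of the yeast genome are mostly nucleosome-depleted stretches at promoters and gene ends, where transposase can cut the DNA.

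All cells were of the W303-1a background and mating type MATa, and shared the same auxotrophic markers and can1-100. In every strain the endogenous ORC4 gene was driven by the GALS promoter (GALS-ORC4-kanMX4), which is shut off in glucose, and Orc6 carried a MYC tag (ORC6-MYC-hphNT1). The WT strain expressed intact Orc4 from ura3-1::ORC4-URA3 and the mutant expressed Orc4 without the helix from ura3-1::orc4-IH_delta-URA3, each under the native ORC4 promoter. Both strains thus relied on an ectopic Orc4 copy with the endogenous gene repressed. Cells were shifted from YPG to YPD, a glucose medium, and held at G2/M for 3 h in benomyl (20 µg/ml), which blocks microtubules. The series' design gives 2 ORC ChIP-seq libraries per strain, deposited as 1 list per strain, and 1 ATAC-seq library per strain. Of the 10 samples of the series, these 4 were used.

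Each list is a set of intervals with a fold enrichment, the linear ratio of a peak over its local background. Fold enrichments were computed by the authors' peak caller. All 2219 mutant and all 618 WT lines have names with the number 2, which reads as the second library. If so, the fold enrichments are those of 1 library, and the intervals are the parts shared with the other. Mutant lines that share a peak name were joined, which gave the 2140 peaks. With 1 list per strain there is no replicate spread, and peaks of 1 list are not replicates of a condition, so no difference below was tested. Shares are given with 95% Wilson intervals and medians with 95% binomial order-statistic intervals, and both cover counting error only. The reads behind each list are unknown from the lists, so a site without a WT peak is a site where none was called, and ORC need not be absent there. The labels and the names of the ATAC-seq lists give opposite strains, so both lists were merged into open regions and single lists are named by their sample label. The number of ATAC-seq peaks that the study gives for each strain goes with the names of the lists and against the labels, so the labels may be exchanged.

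Of the 2140 mutant peaks, 85.8% overlapped no WT peak and 69.5% overlapped an open region. At least 2 mutant peaks were found in 141 of the 2716 open regions (5.19%). In 11 of these every mutant peak overlapped a WT peak, which leaves the 130 regions with a member. The 248 members made up 13.5% (95% Wilson interval 12.0% to 15.1%) of the 1837 mutant-only peaks. A further 1061 mutant-only peaks were the only mutant peak of their open region, and 528 lay outside open regions. Of the 130 regions, 117 held exactly 2 mutant peaks, 12 held 3 and 1 held 5. In 105 regions every mutant peak was a member, and in 25 (19.2%, interval 13.4% to 26.8%) a member lay beside a mutant peak shared with WT.

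Regions with members were spread over the genome. Chromosome X had the highest share of its open regions among them, 13 of 157 (8.28%), and chromosome XIV the lowest of the nuclear chromosomes, 4 of 187 (2.14%). The 2-micron plasmid had 3 mutant peaks and no member. On chromosomes VII and XV, 29 members each were found, the highest counts, out of 188 and 215 mutant peaks (15.4% and 13.5%). Over the whole list, 248 of 2140 mutant peaks were members. As a share of a chromosome's mutant peaks, chromosome X was the highest (19.0%).

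Open regions with members were wide and strongly accessible. Their median width was 1333 bp (interval 1238 to 1450 bp), against 573 bp for the 1212 regions with 1 mutant peak, 362 bp for the 1363 regions with none and 458 bp for all regions. The median of the highest ATAC-seq fold enrichment in a region was 6.72 (interval 5.97 to 7.30), against 3.86, 2.68 and 3.20. A wide region has more room for a second peak, so width and peak number are tied by construction. Among regions under 500 bp, 3 of 1475 held 2 or more mutant peaks. The share rose over each width class, from 3.83% of 836 regions at 500 to under 1000 bp to 17.5% of 291 and 38.6% of 83 in the next classes. Of the 31 regions of 2000 bp or more, 23 held several mutant peaks (74.2%, interval 56.8% to 86.3%) and none lacked one. The number of mutant peaks per kb of open region did not rise in the same way. It was 1.24 in the narrowest class and between 0.751 and 0.903 in the others.

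**Figure D1:**
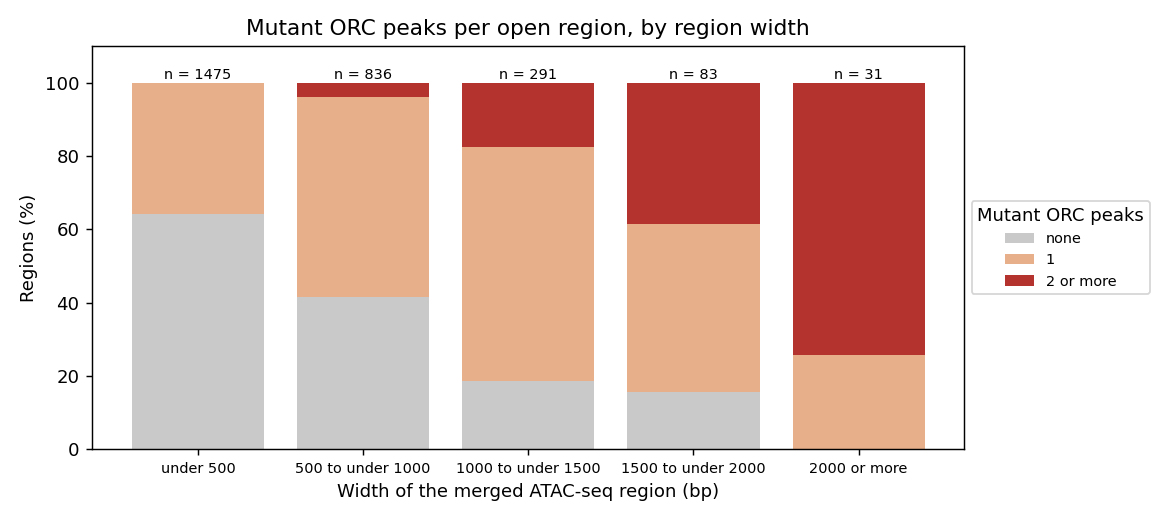
Percentage of merged ATAC-seq regions (vertical axis) with no, 1 or several Orc4-IHΔ ORC peaks, by width of the region in bp (horizontal axis), with the number of regions above each bar. Regions with 2 or more peaks make up 3.83% of those at 500 to under 1000 bp and 74.2% of those of 2000 bp or more.

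Within a width class, the order of accessibility between regions with a member and those with 1 mutant peak was not the same throughout. At 1000 to under 1500 bp the median ATAC-seq fold enrichment was 7.50 in the 49 regions with a member and 7.86 in the 186 with 1 mutant peak. At 1500 to under 2000 bp it was 6.80 in 32 regions and 7.21 in 38. At 500 to under 1000 bp the 28 regions with a member also had the lower median, against 5.29 in the 456 with 1 mutant peak. At 2000 bp or more the order turned, with 7.68 in 19 regions and 5.49 in 8, and under 500 bp only 2 regions had a member. From 500 to under 2000 bp, regions without a mutant peak had medians below those with a member, 3.98 in 348 regions, 6.28 in 54 and 6.24 in 13.

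Nearly all of these regions were called as open in both ATAC-seq lists, 127 of 130 (97.7%, interval 93.4% to 99.2%), against 77.4% of all regions and 88.4% (interval 86.4% to 90.1%) of those with 1 mutant peak. Regions with a member were also wider and had higher ATAC-seq medians, and these shares were not compared at like width or accessibility. The 3 exceptions, on chromosomes II, III and XI, had ATAC-seq fold enrichments of only 2.20, 1.87 and 1.98. The region on chromosome XI, from 660468 to 660814, was also the narrowest with a member, at 347 bp. Across the 127 regions, the log2 ratio of the list labelled Orc4-IHΔ over the list labelled WT was 0.04 at the median, between quartiles of -0.08 and 0.13. Over all 2101 regions found in both lists the median was 0.02. If the labels are exchanged, the signs turn. In 102 of the 130 regions each list had at most 1 ATAC-seq peak. Whether all ORC peaks of a region met the same ATAC-seq peak was not counted. In the other 28 (21.5%) a list had 2 or more ATAC-seq peaks in the region, as in 109 of all 2716 regions (4.01%).

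Members were slightly lower than solitary mutant-only peaks in open chromatin and slightly higher than those outside it. Their median ORC fold enrichment was 3.03 (interval 2.87 to 3.20), with quartiles of 2.50 and 3.90 and a range of 1.60 to 7.83. The median was 3.27 (interval 3.20 to 3.36) for the 1061 single peaks, 2.83 (interval 2.75 to 2.93) for the 528 outside open regions and 3.12 for all mutant peaks. At or above the median of all mutant peaks were 114 of 248 members (46.0%, interval 39.9% to 52.2%), against 50.0% of all mutant peaks. Members ranged from 39 to 1138 bp in width and were 286 bp wide at the median, against 267 bp for single peaks and 196 bp for those outside open regions. Higher peaks were also wider. The Spearman correlation of fold enrichment with width was 0.572 across the 248 members and 0.579 across all 2140 mutant peaks, and both measures come from 1 peak call.

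**Figure D2:**
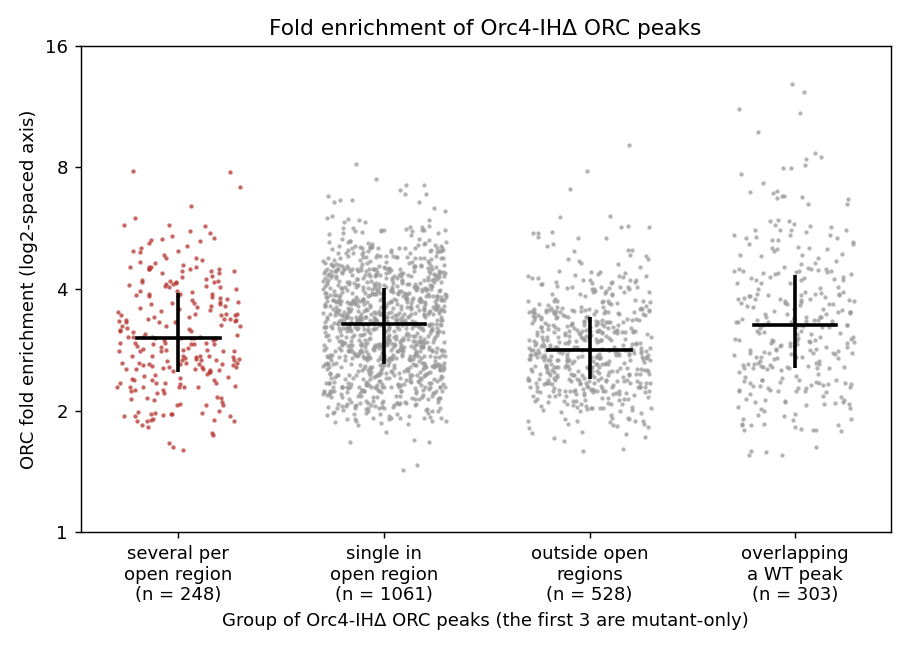
ORC fold enrichment of each Orc4-IHΔ peak (vertical axis, spaced by log2) for the 248 members, the 1061 mutant-only peaks single in an open region, the 528 outside open regions and the 303 that overlap a WT peak. Horizontal bars are medians and vertical bars run from the lower to the upper quartile; the members' median of 3.03 lies between 3.27 and 2.83.

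In open regions of like width, the difference from single peaks depended on the width. In regions of 1000 to under 2000 bp, the 157 members had a median fold enrichment of 3.04 (interval 2.87 to 3.32) and a median width of 292 bp. The 197 single mutant-only peaks there had 3.74 (interval 3.59 to 3.92) and 532 bp. At 2000 bp or more the gap was small, with 3.39 for 34 members and 3.44 for 7 single peaks, and median widths of 366 and 354 bp. At 500 to under 1000 bp the medians were 2.73 for 53 members and 3.26 for 403 single peaks, and the widths 254 and 301 bp. Under 500 bp there were only 4 members, with 2.77 and 315 bp, against 3.11 and 221 bp for 454 single peaks. A wide peak leaves less room for another in its region, so widths are partly set by the rule. Since higher peaks were also wider, the contrasts in fold enrichment are not free of the rule. When the mutant peaks of a region of 1000 to under 2000 bp were ranked, the highest had a median of 3.84 and the lowest 2.61 over the 81 regions with a member. The highest is chosen upward and the lowest downward, so these values describe the range within regions. In the 224 regions with 1 mutant peak, shared peaks included, the median was 3.74. In total a median of 695 bp (interval 606 to 753 bp) of a region lay under mutant peaks where there were several, against 566 bp (interval 482 to 622 bp) where there was 1. From the first to the last, the peaks spanned a median of 1108 bp, against 568 bp for the lone peak. The 81 regions were somewhat wider than the 224, with medians of 1403 and 1213 bp.

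Members lay away from the middle of their open region, where single peaks lay close to it. In regions of 1000 to under 2000 bp, 39 of 157 members (24.8%, interval 18.7% to 32.1%) had their midpoint under 200 bp from the region's centre, against 138 of 197 single peaks (70.1%, interval 63.3% to 76.0%). At 400 bp or more from the centre were 68 members (43.3%) and 20 single peaks (10.2%). Peaks that do not overlap cannot all be centred, so part of this contrast is built into the rule. Over regions of any width, the midpoint of a member lay a median of 291 bp (interval 251 to 320 bp) inside the nearer edge. The midpoint was inside the region for 236 of 248 members, and 65 members (26.2%) reached past an edge.

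**Figure D3:**
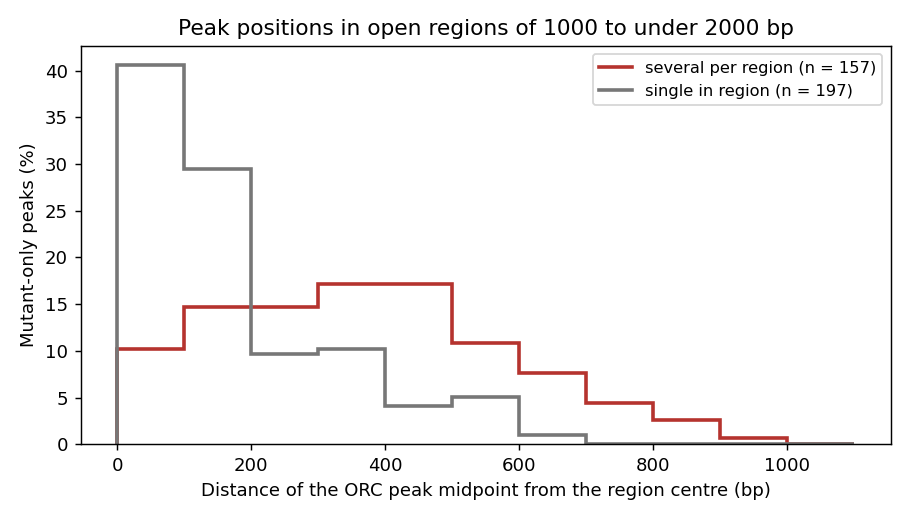
Distance of ORC peak midpoints from the centre of their open region in bp (horizontal axis), as a percentage of the 157 members and of the 197 single mutant-only peaks (vertical axis), in regions of 1000 to under 2000 bp and in classes of 100 bp. Under 200 bp from the centre lie 24.8% of members and 70.1% of single peaks.

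The strongest ATAC-seq summit, the point of highest accessibility in the region, lay inside the peak for 95 of 248 members (38.3%, interval 32.5% to 44.5%) and for 912 of 1061 single peaks (86.0%, interval 83.7% to 87.9%). A region has 1 strongest summit and its peaks do not overlap, so at most 1 of them can hold it. The lower share among members is thus partly set by the rule. Counted by region, one of the mutant peaks held the summit in 100 of 130 regions (76.9%, interval 69.0% to 83.3%). The lone peak did so in 1037 of the 1212 regions with 1 mutant peak (85.6%). In regions of 1000 to under 2000 bp these counts were 60 of 81 (74.1%, interval 63.6% to 82.4%) and 185 of 224 (82.6%, interval 77.1% to 87.0%). Members on the summit were higher and wider than the others, with a median fold enrichment of 3.56 (interval 3.08 to 3.84) and a median width of 404 bp. The 153 members off the summit had 2.72 (interval 2.60 to 2.99) and 242 bp. A wider peak is more likely to cover any given point, and width moved with height.

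In the 117 regions with exactly 2 mutant peaks, the midpoints lay on either side of the region's centre in 111 and on either side of the strongest ATAC-seq summit in 78. The peak nearer the summit had the higher fold enrichment in 76 of the 117 regions and the lower in 41. The higher peak of a pair exceeded the lower by a median of 1.33-fold (interval 1.24 to 1.44), with a range of 1.02 to 2.95. Such a ratio is at least 1 by construction, and it was not set against pairs of peaks from different regions. The ratio was under 1.5 in 76 regions and 2 or more in 11. The most even pair lay on chromosome XV in the region from 304045 to 305290, with fold enrichments of 3.04 and 2.99. The most uneven lay on chromosome VIII in the region from 292752 to 294195, with 1.95 and 5.76. Across the 117 pairs, log2 fold enrichments of the left and right peaks correlated with a Pearson r of 0.124 and a Spearman rho of 0.110. Both peaks of a pair share the library and the open region, and no p-value is given.

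Neighbouring mutant peaks in a region were separated by a median of 260 bp between their facing ends (interval 216 to 303 bp) and 653 bp between their midpoints (interval 591 to 706 bp), over 145 pairs of neighbours. The facing ends were under 150 bp apart in 30 pairs, 150 to under 500 bp in 88, 500 to under 1000 bp in 23 and 1000 bp or more in 4. The smallest gap was 79 bp, which is also the smallest between any neighbours in the joined mutant list. No closer peaks are listed. Across the whole list neighbours were a median of 2946 bp apart, but pairs that meet 1 open region are close by the rule.

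**Figure D4:**
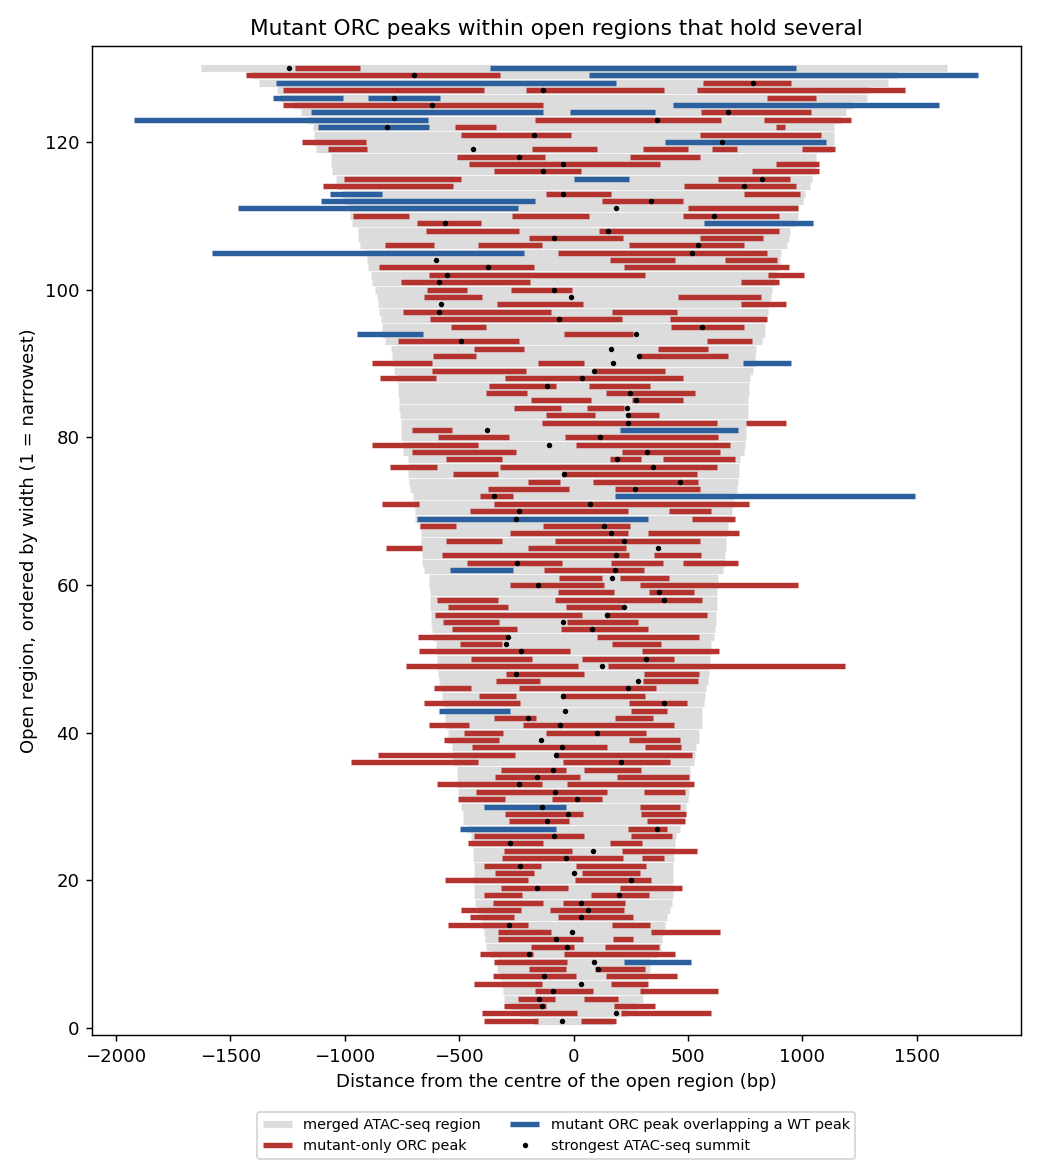
The 130 open regions with a member, 1 per line and ordered by width (vertical axis), with positions as distance from the region's centre in bp (horizontal axis). Grey bars are merged ATAC-seq regions, red bars mutant-only ORC peaks, blue bars mutant ORC peaks that overlap a WT peak and dots the strongest ATAC-seq summit; widths run from 347 to 3259 bp, and in 111 of the 117 regions with 2 mutant peaks these lie on either side of the centre.

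WT ORC peaks were found in some of the same open regions. Of the 130 regions, 24 (18.5%, interval 12.7% to 26.0%) had a WT peak, against 8.51% of all 2716 regions and 12.0% of those with 1 mutant peak. A shared mutant peak can meet its WT peak outside the region, and wider regions meet more peaks of any list. Shared peaks also count toward the 2 mutant peaks that the rule asks for. In the 20 regions with 1 member, every other mutant peak was shared with WT. The share of regions with a WT peak is therefore partly set by the rule. A WT peak lay within 1000 bp of 43 of 248 members (17.3%, interval 13.1% to 22.5%), against 13.2% of all mutant-only peaks. In 18 regions a single member was paired with a single shared peak, and the shared peak was the higher in 10 and the member in 8. The nearest WT peak was a median of 5135 bp from a member (interval 3768 to 6647 bp), against 6499 bp for single peaks. A mutant-only peak with only a shared peak beside it in its region counts as a member, not as single. Both comparisons of nearness to WT peaks are thus partly set by the rule. The member closest to one lies on chromosome XI from 462936 to 463374, 44 bp from a WT peak. It had a fold enrichment of 3.94 and is one of 9 members joined from 2 pieces.

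The region with the most mutant peaks lies on chromosome I from 189911 to 192158, and its ATAC-seq fold enrichments were 7.36 (labelled WT) and 7.54 (labelled Orc4-IHΔ). All 5 of its mutant peaks were members, and all were low. In order along the chromosome their ORC fold enrichments were 2.24, 1.88, 1.97, 1.67 and 2.00, each below the lower quartile of all members. The nearest WT peak was 29721 bp away. Among the 12 of these regions with 3 mutant peaks, of which the 4 most accessible are described, the one with the highest ATAC-seq fold enrichment (10.6) lies on chromosome XVI from 279970 to 282048. Its outer peaks, with ORC fold enrichments of 4.43 and 3.02, were members, and the middle one, with 2.88, overlapped a WT piece from 280992 to 281277. A region on chromosome IV from 768218 to 770241 had a shared peak at its left edge (3.48), a low member near its centre (1.94) and a higher one at its right edge (4.19). On chromosome VII, from 999854 to 1002129, a shared peak of 3.69 was followed by members of 3.32 and 2.29. The last of these, from 1001878 to 1001916, is the narrowest of all members, at 39 bp. On chromosome V, from 41850 to 43174, all 3 peaks were members, with fold enrichments of 3.79, 1.89 and 2.59. Its ATAC-seq fold enrichments were 7.48 (labelled WT) and 5.61 (labelled Orc4-IHΔ).

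The 5 highest members stood in regions with ATAC-seq fold enrichments from 2.78 to 9.17. The first lies on chromosome XV from 1004099 to 1004469, with an ORC fold enrichment of 7.83. Its region, from 1003203 to 1004633, held a second high member of 5.30 and had an ATAC-seq fold enrichment of 7.64. The next lies on chromosome V from 545214 to 545611 (7.80), beside a member of 2.73 in the region from 544220 to 545556. A WT peak lay 518 bp from it. On chromosome XIII from 352837 to 353597 a member of 7.15 was followed by one of 4.48. On chromosome XVI from 586889 to 587607 a member of 6.42 was preceded by one of 3.04. The fifth lies on chromosome V from 151048 to 151529 (6.01), beside a member of 4.18. Its region had ATAC-seq fold enrichments of 2.78 (labelled WT) and 1.72 (labelled Orc4-IHΔ).

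The 3 most accessible of the 130 regions held mutant ORC peaks of 2.01 to 3.70. Higher ATAC-seq fold enrichments, up to 23.5, were found in regions without a member. The highest ATAC-seq fold enrichment of a region with a member was 15.1, on chromosome XIII from 540038 to 541183, where the members had ORC fold enrichments of 2.67 and 3.70. The next, 14.8 on chromosome XII from 1064428 to 1065548, held a member of 2.28 and a shared peak of 2.01, and the WT peak there had 6.87. WT and mutant fold enrichments come from different libraries of unknown depth, so their sizes were not compared. The third, 13.0 on chromosome X from 662798 to 664307, held a member of 2.92 and a shared peak of 2.56. Across the 130 regions, the highest ORC fold enrichment and the ATAC-seq fold enrichment gave a Spearman rho of 0.03 and, on the log2 scale, a Pearson r of 0.05. For the 1061 single peaks these were 0.201 and 0.195. The first pair of values takes the highest of several peaks, shared peaks included, and regions with a member were wider. The correlations are therefore not like for like. The points share the libraries, and no p-value is given.

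In each of the 3 widest of the 130 regions, 1 member lay beside 1 shared peak. On chromosome VIII, from 450440 to 453698, a member of 3.67 lay near the left edge and a shared peak of 4.20, 1338 bp wide, across the centre. On chromosome X, from 119230 to 122051, a member of 5.42 and a shared peak of 4.53 filled the left and right sides. On chromosome XII, from 837414 to 840164, the shared peak of 3.78 lay on the left and the member of 3.58 on the right.

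At the edge of the rule, the member with the smallest overlap touched its region by 1 bp. It is the peak of 4.48 on chromosome XIII named above, from 353727 to 353898. Just outside the rule, a mutant-only peak on chromosome XV from 479248 to 479519 (fold enrichment 4.75) ended 69 bp short of an open region that held 1 mutant peak.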

How the data were processed

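The members and lists were chosen with earlier results of these data known. Peak lists for ORC ChIP-seq and ATAC-seq were used as deposited. The submitters' processing notes name the build sacCer2, Bowtie 1.2.2, SAMtools 1.3.1, bedtools 2.27.1 and MACS2 2.1.1.20160309 for ORC, and Bowtie2 2.3.4.1, MACS2 2.1.1.20160309 and Picard for ATAC-seq. The fold enrichment (a linear ratio) and the −log10 p and −log10 q values were made by the authors' peak caller. The deposited score is a multiple of one of these and was not used. The ORC list names read as peaks common to the libraries with RNA genes left out, so that peaks at such genes would be missing.

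Mutant lines of 1 name were joined from first start to last end. ATAC-seq peaks of both lists that overlapped or touched were merged. Overlap meant at least 1 bp. Coordinates are sacCer2, counted from 1. ORC summits were not used, since lines are pieces of called peaks. Among regions with a member, those named are the 5 with most mutant peaks (ties by higher ATAC-seq fold enrichment), the 3 widest, the 3 most accessible, the regions of the 5 highest members and those at the edge of the rule; the most even and uneven pairs, the regions found in 1 list and the narrowest member were chosen after their values were seen. No genes, origins or sequences are given, because the gene table used here is of another build (R64) and no genome of sacCer2 was used. The code was tested on simulated lists. Scripts ran under Python 3.11.15 with pandas 2.3.3, numpy 2.4.6, statsmodels, scipy 1.17.1 and matplotlib, and 10 alternatives were tried.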

Additional observations from a re-analysis of the deposited data

How the results depend on the processing

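Of 110 alternative values, 10 for each of 11 results, 96 stayed within the interval of the reported value, or within 1.5 times for a count, and 14 moved. Keeping only ATAC-seq peaks with a −log10 q of at least 2 left all 11 results unchanged, so that alternative tested nothing. Asking for at least 50% of a peak, or for its midpoint, inside the region gave the same 11 values. The 96 are thus not all separate checks. With the weaker mutant peaks, those below the median, left out, there were 63 members in 36 regions, 6.94% of mutant-only peaks, with a mean of 2.03 mutant peaks per region, against 2.12. Their median fold enrichment was 3.93 and their median width 371 bp. The regions had a median width of 1462 bp, and 27.8% held a peak shared with WT. Fewer peaks enter by construction. With lines not joined, members were 17.1% of mutant-only lines, with a median fold enrichment of 3.23 and a median gap of 208 bp, since pieces of 1 peak then count as several. With the ATAC-seq list labelled Orc4-IHΔ alone, members were 11.2% of mutant-only peaks. With the list labelled WT alone, member midpoints lay a median of 251 bp inside the nearer edge. With no WT peak allowed within 500 bp of a member, 12.9% of regions held a peak near or shared with WT. Depth is unknown, so weak second peaks may be missing from regions counted as single.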
